A study of Arabidopsis thaliana with 14 samples.

Results

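Abscisic acid (ABA) is the hormone that promotes seed maturation and dormancy, and 10 genes for its synthesis and breakdown were followed in developing Arabidopsis siliques. They were chosen by gene identifier and are 10 of the 27394 genes counted: NCED3, NCED5, NCED6, NCED9, ABA1, ABA2, AAO3, CYP707A1, CYP707A2 and CYP707A3. Messenger RNA was sequenced from 14 libraries, each from 3 siliques of Col-0 plants taken 6 to 9 days after anthesis and grown in long days with a 16 h photoperiod. Aza1 eM3 (n = 4) and Aza1 eM2 (n = 3) are 2 generations of the same line, which descends from a jas-3 plant exposed to 5-Azacytidine, an inhibitor of DNA methylation. The labels call these generations eM2 and eM1, and the names of the study are used here, matched by the order of the generations and the number of libraries. DMSO (n = 3) stands for jas-3 plants given the solvent, jas-3 (n = 2) for untreated mutants, and WT (n = 2) for plants without the mutation. All groups but WT therefore carry jas-3, an allele of JASON with which part of the pollen is diploid, so that selfed siliques hold triploid seeds, many of which collapse. The study asked whether the treatment lets such seeds survive, and the comparisons below ask whether the ABA genes differ between these siliques. The labels call the DMSO, jas-3 and WT libraries biological replicates, and in the study the Aza1 eM3 libraries are from sibling plants. All Aza1 libraries share 1 exposed ancestor, so the p-values for Aza1 measure the spread within that line. The study followed Aza1 as a strong suppressor of seed collapse, so comparisons with it do not measure the treatment in general.

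ABA is made from carotenoids. In plastids, zeaxanthin epoxidase, encoded by ABA1, makes violaxanthin, and the 9-cis-epoxycarotenoid dioxygenases (NCEDs) cleave its cis products to xanthoxin, the step usually regarded as limiting. ABA2, a short-chain dehydrogenase, and AAO3, an aldehyde oxidase, turn xanthoxin into ABA in the cytosol, and the CYP707A cytochromes P450 begin its breakdown by hydroxylating it at the 8′ position. In Arabidopsis seeds NCED6 is known as an endosperm gene and NCED9 as a gene of the testa and other seed parts, while NCED3 is known from water stress.

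The genes lie at separate places in the TAIR10 genome, whose coordinates the deposited tables use. The 4 NCED genes are NCED3 (AT3G14440, chr3:4831288-4833599, minus strand), NCED5 (AT1G30100, chr1:10571340-10573365, plus), NCED6 (AT3G24220, chr3:8761434-8763172, plus) and NCED9 (AT1G78390, chr1:29490895-29492875, minus). Each has 1 exon block in the RefSeq annotation of TAIR10.1. The later and earlier steps are encoded by ABA1 (AT5G67030, chr5:26753510-26757236, minus, 16 exon blocks), ABA2 (AT1G52340, chr1:19489794-19491648, minus, 2 blocks) and AAO3 (AT2G27150, chr2:11601754-11608450, plus, 10 blocks). The breakdown genes are CYP707A1 (AT4G19230, chr4:10521379-10523961, plus, 7 blocks), CYP707A2 (AT2G29090, chr2:12494851-12499723, minus, 9 blocks) and CYP707A3 (AT5G45340, chr5:18368642-18370991, minus, 5 blocks). Every window of 100 bases in the spans given here, introns included, occurs once in the genome. Reads within these spans could thus be told apart between the NCED and CYP707A genes. Sequence across splice junctions and exon sequence outside the spans were not checked. ABA2 overlaps AT1G52330 on the other strand, which had 9 to 92 counts, and AAO3 overlaps AT2G27160, which had 0 to 2 counts. Whether the counting used strand is not given in the sources used here.

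The promoters of ABA1, CYP707A1 and CYP707A3 are shown, each as the 250 bases before the annotated RefSeq start (TAIR10.1). ABA1 is shown because it had the smallest adjusted p of the 10 genes. CYP707A1 and CYP707A3 are 2 genes for the same reaction whose promoters carry the same pair of motifs. They are shown because their log2 fold changes against WT differed in sign, with the limits given below. Capitals mark the letters ACGTG (the core of ABA response elements), CACGTG (the G-box, which contains that core) and CATGCA (the RY motif of seed genes), searched on both strands.
ABA1, chr5:26757403-26757652, minus strand: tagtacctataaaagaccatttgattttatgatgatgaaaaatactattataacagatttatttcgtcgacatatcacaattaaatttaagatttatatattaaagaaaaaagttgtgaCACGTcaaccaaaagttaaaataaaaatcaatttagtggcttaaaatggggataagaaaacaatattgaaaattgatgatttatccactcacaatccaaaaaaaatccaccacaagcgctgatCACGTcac
CYP707A1, chr4:10521009-10521258, plus strand: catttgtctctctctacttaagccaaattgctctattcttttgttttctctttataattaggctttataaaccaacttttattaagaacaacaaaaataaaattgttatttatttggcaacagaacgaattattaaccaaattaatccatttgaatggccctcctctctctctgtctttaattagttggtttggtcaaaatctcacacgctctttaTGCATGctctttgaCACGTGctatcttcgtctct
CYP707A3, chr5:18371022-18371271, minus strand: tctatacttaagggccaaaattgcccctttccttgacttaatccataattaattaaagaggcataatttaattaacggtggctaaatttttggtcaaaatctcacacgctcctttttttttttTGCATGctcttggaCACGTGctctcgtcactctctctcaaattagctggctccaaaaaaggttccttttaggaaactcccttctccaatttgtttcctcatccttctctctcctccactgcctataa
In ABA1 the ACGTG core began 131 and 8 bases before the start. CYP707A1 had the G-box 20 and the RY motif 34 bases before its start, and CYP707A3 had them 113 and 127 bases before it, so the spacing between the motifs was the same in both. Of 26906 promoters of this length, 23.1% held ACGTG, 6.55% the G-box and 8.56% the RY motif. NCED9 also held a G-box, 26 bases before its start. The letters AAAATATCT (evening element, 2.39% of promoters) and AAAAATCT (CCA1-binding site, 6.72%) were in none of the 10 windows. These matches describe the letters of the windows and say nothing about binding.

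Total counts on genes were 40526464 to 43974069 per library. Replicate libraries differed by more than counting error, with a common biological coefficient of variation of 0.247, and no 2 libraries looked like a single one deposited again. The targeted gene, JASON (AT1G06660), did not check the labels by a loss of counts: it had 93, 196, 140 and 138 counts in Aza1 eM3, 80, 109 and 87 in Aza1 eM2, 169, 148 and 111 in DMSO, and 188 and 225 under the label jas-3, against 14 and 14 under the label WT. Gene counts do not show which part of JASON the reads came from, and every direction between jas-3 and WT below rests on these labels. Counts on 8 seed storage protein genes made up 14.9% to 27.6% of gene counts in Aza1 eM3, 21.8% to 30.7% in Aza1 eM2, 10.7% to 22.6% in DMSO and 7.97% to 17.0% in jas-3, against 36.7% to 42.5% in WT. The summed level of 8 endosperm markers ran from 69.0 to 92.4 scaled CPM (counts per 1e6) in Aza1 eM3, 58.9 to 67.8 in Aza1 eM2, 81.1 to 122 in DMSO and 96.3 to 115 in jas-3, against 22.7 to 23.9 in WT, where PHE1, FWA and MINI3 were at 0. The summed level of 4 embryo markers was 237 to 339 in Aza1 eM3, 323 to 340 in Aza1 eM2, 228 to 294 in DMSO and 230 to 256 in jas-3, against 355 to 436 in WT. These 4 did not move together. Mean levels in jas-3 and WT were 111 and 319 for ABI3 and 59.1 and 75.3 for FUS3. They were 61.8 and 1.71 for LEC1 and 11.3 and 0.104 for LEC2. The summed level of 4 seed coat markers was 551 to 726 in Aza1 eM3, 556 to 769 in Aza1 eM2, 700 to 884 in DMSO and 921 to 1367 in jas-3, against 785 to 833 in WT. That of 6 markers of silique wall and green tissue was 2960 to 4287 in Aza1 eM3, 3045 to 3579 in Aza1 eM2, 2923 to 4084 in DMSO and 4560 to 6115 in jas-3, against 2943 to 3086 in WT. Each of these marker lists had counts in every group of these whole siliques. In WT the endosperm sum was mostly IKU2, with a mean of 20.6 scaled CPM. The WT means of ZOU, MEA, AGL62 and FIS2 were 0.922, 0.811, 0.613 and 0.396. WT thus stood apart from all other groups in the storage, endosperm and embryo sums, though not in the seed coat sum. LEC1 and LEC2 ran against the embryo sum, being lowest in WT. The part of these differences in the results against WT was not tested beyond the fit with the seed storage share given below. In such material, fewer cells of a type and less RNA per cell cannot be told apart.

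Scaled CPM values are counts divided by the library's total gene count times its TMM factor (trimmed mean of M values, a scaling that matches most genes between libraries), and multiplied by 1e6. Dividing them by exon length in kilobases lets genes be ordered. ABA1 had the highest median level in all 5 groups, at 33.0 scaled CPM per kilobase in Aza1 eM3, 40.2 in Aza1 eM2, 41.9 in DMSO and 91.3 in jas-3, against 112 in WT. NCED6 came second in every group, with a median of 25.9 in Aza1 eM3, 29.1 in Aza1 eM2, 35.4 in DMSO and 40.4 in jas-3, against 25.7 in WT. The ranges of ABA1 and NCED6 overlapped in Aza1 eM3 and in DMSO, and did not in the other 3 groups. ABA2 came next except in jas-3, where its libraries, at 14.2 and 14.6, lay between those of NCED9, at 9.03 and 20.03. NCED9, AAO3 and CYP707A1 followed with medians of 3.73 to 14.5, and their order changed between groups. At the low end, the medians of NCED3, NCED5, CYP707A2 and CYP707A3 were between 0.021 and 3.32 in all groups. Among the NCED genes, the endosperm gene NCED6 therefore had the highest level in each group.

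**Figure D1:**
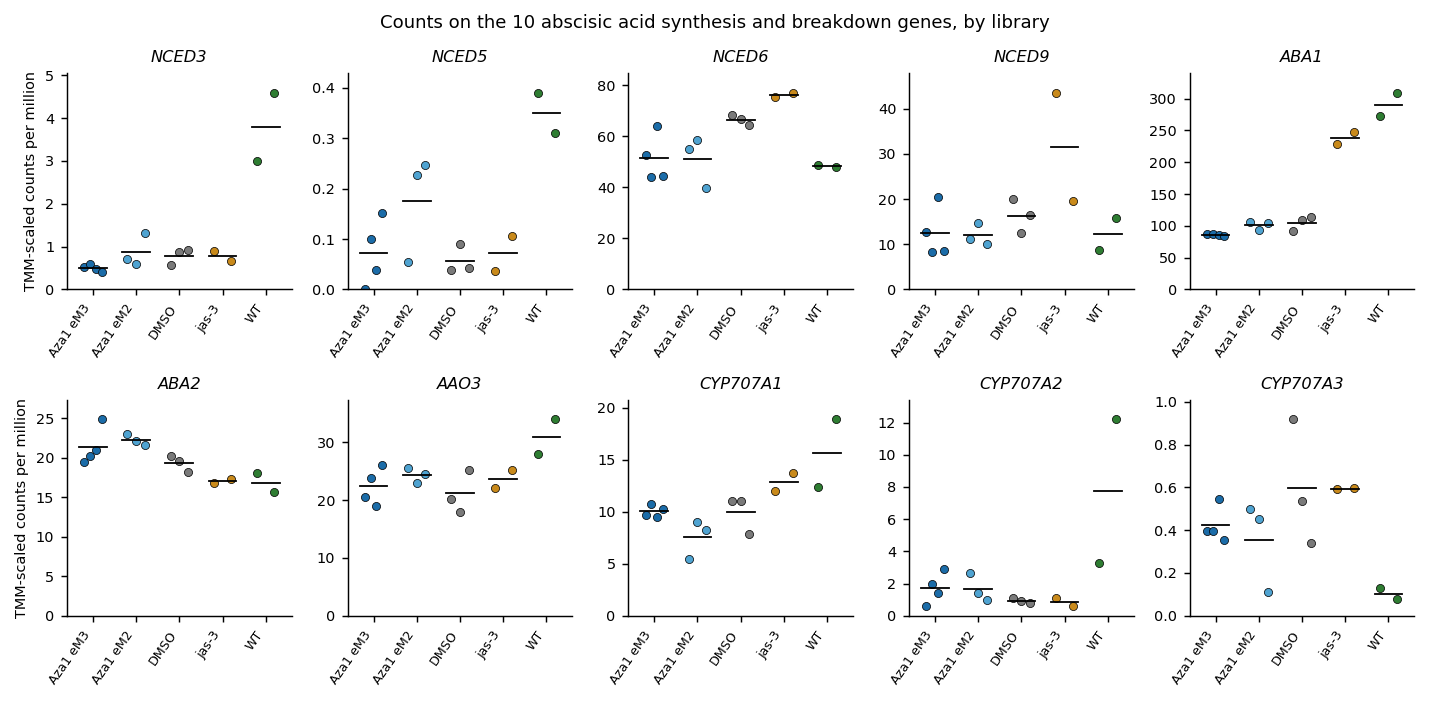
TMM-scaled CPM (y axis, from 0) of each of the 10 genes in each library, with groups along the x axis; points are libraries and horizontal lines are group means. ABA1 is high in jas-3 and WT, at 229 or more in each library, and at 114 or less in every other library, while NCED3 is at 2.99 or more only in WT.

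Among the carotenoid cleavage genes, NCED3 was lower in every library with jas-3 than in either WT library. It had 0.529, 0.596, 0.467 and 0.407 scaled CPM in Aza1 eM3, 0.718, 0.59 and 1.32 in Aza1 eM2, 0.575, 0.876 and 0.912 in DMSO, and 0.888 and 0.659 in jas-3, against 2.99 and 4.59 in WT. These are few reads, with 16 to 48 counts in the jas-3 background and 92 and 118 in WT. NCED3 fell against WT in all 3 comparisons, with log2 fold changes of −2.28 ± 0.43 in jas-3 (SE, adjusted p = 0.0015 in edgeR's quasi-likelihood test), −2.26 ± 0.37 in DMSO (adjusted p = 0.00044) and −2.11 ± 0.37 in Aza1 eM2 (adjusted p = 0.001). It kept its direction when the total gene count replaced TMM, with log2 fold changes of −1.45, −1.55 and −1.67. With the seed storage share as a covariate it still passed in Aza1 eM2 (log2 fold change −1.73, adjusted p = 0.0197), and did not in jas-3 (−1.41, adjusted p = 0.475) or DMSO (−1.57, adjusted p = 0.163).

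NCED6 and NCED9 are the NCED genes known from seeds. NCED6 had 52.9, 44.0, 64.1 and 44.6 scaled CPM in Aza1 eM3, 54.8, 58.7 and 39.8 in Aza1 eM2, 68.5, 66.8 and 64.5 in DMSO, and 75.4 and 77.0 in jas-3, against 48.9 and 47.8 in WT. The DMSO and jas-3 libraries lay above both WT libraries, and those of Aza1 on either side of them. NCED6 rose in jas-3 against WT by 0.66 ± 0.20 (log2, adjusted p = 0.0189) and in DMSO by 0.46 ± 0.18 (adjusted p = 0.0494), and stood at 0.08 ± 0.18 in Aza1 eM2 (adjusted p = 0.752). Both calls ended with the seed storage covariate, where the log2 fold changes were 0.05 in jas-3 and −0.015 in DMSO. The call in jas-3 also ended without any 1 of the 4 libraries compared, at adjusted p between 0.0615 and 0.0884, and that in DMSO without any 1 of 10 of the 14 libraries, among them each DMSO and each WT library, at adjusted p between 0.0502 and 0.156. The log2 fold changes themselves stayed between 0.64 and 0.68 in jas-3 and between 0.44 and 0.51 in DMSO when single libraries were left out.

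NCED9 varied more within groups. It had 12.7, 8.22, 20.5 and 8.56 scaled CPM in Aza1 eM3, 11.2, 14.8 and 10.1 in Aza1 eM2, 20.04, 12.4 and 16.6 in DMSO, and 43.5 and 19.6 in jas-3, against 8.65 and 15.7 in WT. It rose only in jas-3 against WT, by 1.38 ± 0.48 on the log2 scale (adjusted p = 0.0364). This rested on the first jas-3 library, without which the log2 fold change was 0.69 (adjusted p = 0.356), and also on the first WT library, without which it was 1.02 (adjusted p = 0.201). With the seed storage covariate the sign turned to −0.53 (adjusted p = 0.814). The summed level of the seed coat markers was also highest in jas-3, though BAN, MUM4 and TT12 overlapped between jas-3 and DMSO and TT10 alone did not. The part of these markers in the level of NCED9, a gene of the testa and other seed parts, was not tested. NCED5 was not tested, since its counts were too low in every group: 0, 4, 2 and 6 in Aza1 eM3, 2, 10 and 9 in Aza1 eM2, 2, 4 and 2 in DMSO, and 2 and 5 in jas-3, against 12 and 8 in WT.

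ABA1 separated the groups in another way. It had 86.9, 87.1, 84.9 and 83.5 scaled CPM in Aza1 eM3, 105, 93.0 and 105 in Aza1 eM2, and 91.8, 109 and 114 in DMSO, all below the 229 and 247 of jas-3 and the 272 and 309 of WT. The Aza1 generations and the solvent controls were thus low together, and untreated jas-3 lay nearer to WT. ABA1 fell in DMSO against jas-3 by 1.18 ± 0.12 on the log2 scale (adjusted p = 0.00022), a 2.27-fold difference, and was the only 1 of the 9 genes tested to pass there, where 1.6% of all 22359 genes tested passed. It also fell against WT, by 1.47 ± 0.12 in DMSO (adjusted p = 2.8e-06) and by 1.52 ± 0.12 in Aza1 eM2 (adjusted p = 3.8e-06). These 3 falls passed under every alternative except a threshold of 2 on the log2 scale, including the seed storage covariate, with log2 fold changes of −1.23, −1.16 and −1.35, and the total gene count, with −1.28, −0.77 and −1.08. In jas-3 against WT the log2 fold change was −0.29 ± 0.13 and did not pass (adjusted p = 0.102), while with the total gene count it was 0.51 and passed in the other direction (adjusted p = 0.0116).

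Genes of the circadian clock also differed between DMSO and jas-3. LHY, a morning clock gene, had 7.45, 6.11, 5.89 and 7.27 scaled CPM in Aza1 eM3, 6.85, 6.45 and 4.39 in Aza1 eM2, and 9.00, 8.67 and 5.64 in DMSO, against 76.4 and 82.7 in jas-3 and 138 and 155 in WT. FKF1, which is expressed later in the day, went the other way, with 41.6, 39.2, 37.5 and 43.3 in Aza1 eM3, 40.8, 40.2 and 56.8 in Aza1 eM2, and 34.4, 38.0 and 53.0 in DMSO, against 0.925 and 1.96 in jas-3 and 2.73 and 3.50 in WT. In DMSO against jas-3 all 5 clock genes listed passed: LHY fell by 3.35 ± 0.21 and CCA1 by 2.40 ± 0.18 on the log2 scale, while FKF1 rose by 4.87 ± 0.33, TOC1 by 1.48 ± 0.15 and GI by 0.86 ± 0.16. In DMSO against WT, LHY (−4.24 ± 0.22) and CCA1 (−3.04 ± 0.18) fell, as did ABA1, while FKF1 and TOC1 rose. In jas-3 against WT, LHY (−0.88 ± 0.23, adjusted p = 0.0096) and CCA1 (−0.64 ± 0.19, adjusted p = 0.0202) fell. FKF1 (−1.12 ± 0.32, adjusted p = 0.0166) and GI (−0.56 ± 0.18, adjusted p = 0.0234) also fell there. TOC1 (0.10 ± 0.16, adjusted p = 0.642) and ABA1 (−0.29 ± 0.13, adjusted p = 0.102) did not pass there. In Aza1 eM2 against DMSO, CCA1 fell by 0.76 ± 0.16 (adjusted p = 0.0174). The 4 other clock genes and ABA1 (−0.05 ± 0.11) did not pass in that comparison. The labels give no time of day for any collection, and the part of sampling time in the difference of ABA1 was not tested. Nor was that of the silique wall and green tissue markers, whose summed levels in DMSO were all below those in jas-3. The 5 clock genes were listed with earlier results of these libraries known, so they are no independent evidence of direction.

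**Figure D2:**
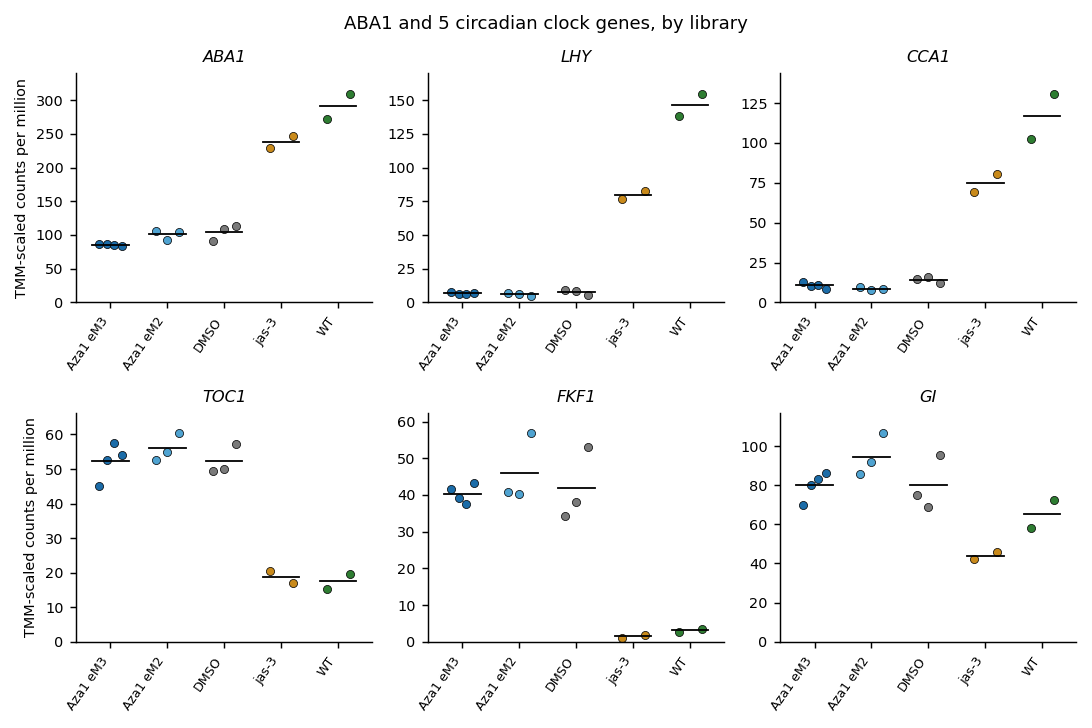
TMM-scaled CPM (y axis, from 0) of ABA1 and of the clock genes LHY, CCA1, TOC1, FKF1 and GI in each library, with groups along the x axis; points are libraries and lines are group means. ABA1, LHY and CCA1 are low in Aza1 eM3, Aza1 eM2 and DMSO and high in jas-3 and WT, and TOC1 and FKF1 show the opposite order.

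ABA2 and AAO3 encode the last 2 steps of synthesis. ABA2 had 19.5, 20.2, 21.0 and 24.9 scaled CPM in Aza1 eM3, 23.0, 22.2 and 21.6 in Aza1 eM2, 20.2, 19.5 and 18.1 in DMSO, and 16.9 and 17.3 in jas-3, against 18.0 and 15.6 in WT. It rose only in Aza1 eM2 against WT, by 0.40 ± 0.12 on the log2 scale (adjusted p = 0.018), and not without the second WT library (0.32, adjusted p = 0.145) or with the seed storage covariate (0.43, adjusted p = 0.0597). With the total gene count it passed in all 3 comparisons with WT, at log2 fold changes of 0.81 in jas-3 (adjusted p = 0.0032), 0.90 in DMSO (adjusted p = 0.001) and 0.83 in Aza1 eM2 (adjusted p = 0.003). AAO3 had 20.5, 23.9, 19.0 and 26.1 in Aza1 eM3, 25.6, 22.9 and 24.5 in Aza1 eM2, 20.2, 18.0 and 25.2 in DMSO, and 22.1 and 25.1 in jas-3, against 27.9 and 34.0 in WT. It fell only in DMSO against WT, by 0.55 ± 0.16 (adjusted p = 0.0149), a call that ended without the second WT (adjusted p = 0.184) or the second DMSO library (adjusted p = 0.0523) and turned in sign to 0.17 with the total gene count and to 0.032 with the seed storage covariate.

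The 3 breakdown genes did not move together. CYP707A1, the most abundant of them, had 9.70, 10.7, 9.45 and 10.3 scaled CPM in Aza1 eM3, 5.47, 8.99 and 8.24 in Aza1 eM2, 11.1, 11.002 and 7.89 in DMSO, and 11.99 and 13.7 in jas-3, against 12.4 and 18.9 in WT. It fell in Aza1 eM2 against WT by 1.05 ± 0.23 on the log2 scale (adjusted p = 0.0035) and in DMSO by 0.65 ± 0.22 (adjusted p = 0.0303). Without the second WT library the log2 fold changes were −0.70 (adjusted p = 0.068) and −0.29 (adjusted p = 0.402), without the third DMSO library the value in DMSO was −0.50 (adjusted p = 0.0905), and with the total gene count they were −0.57 (adjusted p = 0.0837) and 0.089 (adjusted p = 0.773).

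CYP707A2, known for clearing ABA around germination, had 0.573, 1.99, 1.40 and 2.90 scaled CPM in Aza1 eM3, 2.65, 1.41 and 0.989 in Aza1 eM2, 1.07, 0.943 and 0.806 in DMSO, and 1.11 and 0.596 in jas-3, against 3.25 and 12.2 in WT. Both WT libraries were above all others, but they differed from each other more than the groups of the jas-3 background did. It fell against WT, with log2 fold changes of −3.17 ± 0.76 in jas-3 (adjusted p = 0.0064), −3.03 ± 0.65 in DMSO (adjusted p = 0.0024) and −2.2 ± 0.63 in Aza1 eM2 (adjusted p = 0.0167). All 3 calls ended without the second WT library, with log2 fold changes of −1.91, −1.76 and −0.93, and with the seed storage covariate. That in Aza1 eM2 also ended without the second (adjusted p = 0.0547) or the third Aza1 eM2 library (adjusted p = 0.0577).

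CYP707A3 was barely detected in WT, with 4 and 2 counts, and had 18, 16, 28 and 14 counts in Aza1 eM3, 18, 20 and 4 in Aza1 eM2, 48, 24 and 16 in DMSO, and 32 and 28 in jas-3. Scaled, this was 0.397, 0.397, 0.544 and 0.356 CPM in Aza1 eM3, 0.497, 0.454 and 0.110 in Aza1 eM2, 0.920, 0.539 and 0.339 in DMSO, and 0.592 and 0.596 in jas-3, against 0.130 and 0.0777 in WT. It rose against WT by 2.46 ± 0.74 in jas-3 (adjusted p = 0.0199) and 2.48 ± 0.71 in DMSO (adjusted p = 0.0121) on the log2 scale, and in Aza1 eM2 the value was 1.73 ± 0.72 (adjusted p = 0.0765). That in jas-3 also ended without the first jas-3 (2.47, adjusted p = 0.0696) or the first WT library (2.90, adjusted p = 0.057). Neither call held without the second WT library, at 2.18 in jas-3 (adjusted p = 0.117) and 2.21 in DMSO (adjusted p = 0.0883), or with the seed storage covariate, at 0.96 in jas-3 (adjusted p = 0.79) and 1.19 in DMSO (adjusted p = 0.516). CYP707A1 and CYP707A3, whose promoters share the 2 motifs shown above, had log2 fold changes of −0.65 and 2.48 in DMSO against WT. They were −0.28 and 2.46 in jas-3 and −1.05 and 1.73 in Aza1 eM2. Both genes passed in DMSO alone, and neither of these 2 calls held without the second WT library. With the total gene count CYP707A1 was at 0.089 in DMSO.

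Over the 9 genes tested, 5 passed in jas-3 against WT, where NCED6, NCED9 and CYP707A3 rose and NCED3 and CYP707A2 fell, beside 40.3% of all genes (23.7% higher and 16.5% lower). In DMSO against WT 7 passed, beside 49.7%, with 2 higher, beside 27.1%, and 5 lower, beside 22.6%. In Aza1 eM2 against WT 5 passed, beside 38.1%, with 1 higher, beside 22.4%, and 4 lower, beside 15.8%. The study words its fold threshold once on the log2 scale and elsewhere as a plain fold change, and both were applied with an adjusted p under 0.01. With a log2 fold change of at least 2, NCED3 and CYP707A2 passed in jas-3 against WT, beside 9.07% of all genes, and in DMSO against WT, beside 10.4%. NCED3 alone passed in Aza1 eM2 against WT, beside 7.02%, and 0 of the 9 in DMSO against jas-3, beside 0.21%. With a plain fold change of at least 2, NCED3 and CYP707A2 passed in jas-3 against WT, beside 16.1% of all genes, and NCED3, CYP707A2 and ABA1 in DMSO against WT, beside 21.4%. NCED3, CYP707A1 and ABA1 passed in Aza1 eM2 against WT, beside 14.6%, and ABA1 in DMSO against jas-3, beside 0.505%. The median log2 fold changes of the 9 genes were −0.28, −0.55 and −0.35 in these comparisons, and those of all genes 0.06, 0.03 and 0.05. These 3 comparisons share the WT libraries. With the total gene count in place of TMM the medians of all genes were 0.85, 0.74 and 0.49, so that a gene near 0 under one scaling differed from 0 under the other. NCED6 was then at 1.45 in jas-3 and 1.16 in DMSO against WT, NCED9 at 2.24 in jas-3, and CYP707A3 at 3.23 in jas-3 and 3.18 in DMSO. With the seed storage covariate 0, 1 and 3 of the 9 genes passed, and 0, 2 and 4 had an unadjusted p under 0.05. The share of storage counts did not overlap between WT and the other groups, so its effect and that of the group can hardly be told apart.

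**Figure D3:**
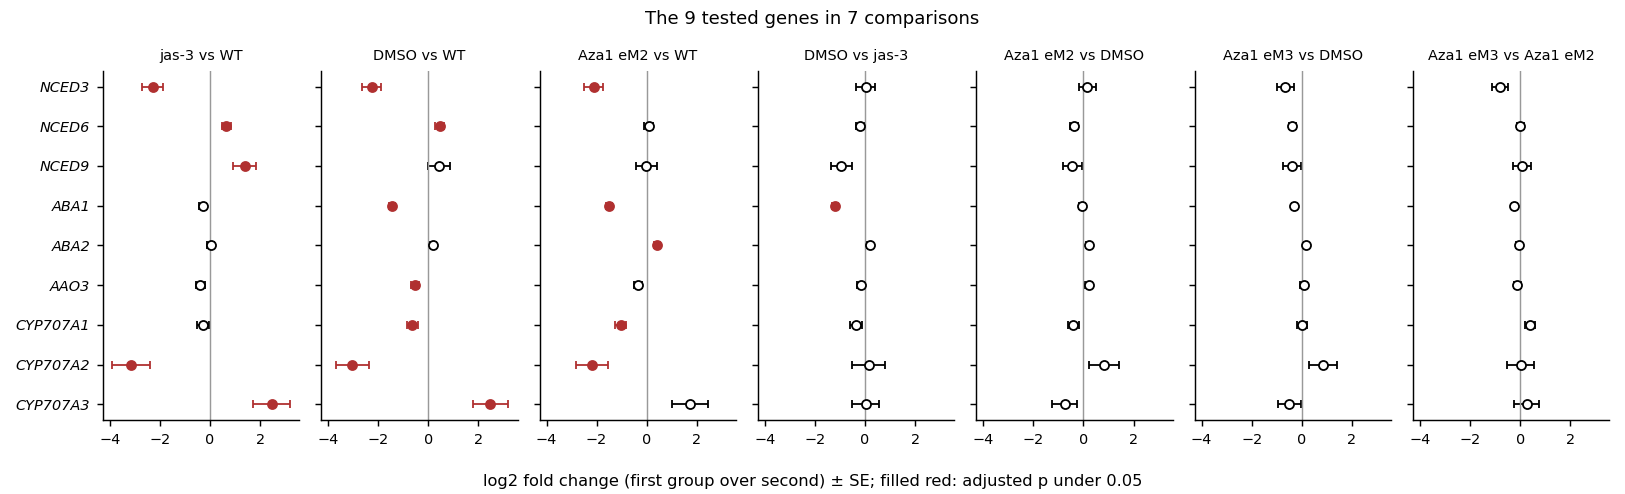
Log2 fold changes (x axis, first group over second) of the 9 tested genes in 7 comparisons, 1 panel each; bars are standard errors, and filled red points have an adjusted p under 0.05. Changes that pass lie in the 3 comparisons against WT and, for ABA1 alone, in DMSO against jas-3, and no point is filled in the 3 panels that set Aza1 against DMSO or eM3 against eM2.

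The comparisons of the Aza1 line with DMSO, and between its 2 generations, gave no passing gene among the 10. In Aza1 eM2 against DMSO 0 of the 9 genes tested passed, beside 4.17% of all genes, and 1 had an unadjusted p under 0.05, beside 17.3% of all genes: NCED6, with a log2 fold change of −0.38 ± 0.16 (adjusted p = 0.241). All 3 of its Aza1 eM2 libraries, at 39.8 to 58.7 scaled CPM, were below the DMSO libraries, at 64.5 to 68.5. In Aza1 eM3 against DMSO 0 passed, beside 0% of all genes, and ABA1 (−0.29 ± 0.10, adjusted p = 0.677) and NCED6 (−0.37 ± 0.15, adjusted p = 0.681) had an unadjusted p under 0.05, beside 7.27% of all genes. In Aza1 eM3 against Aza1 eM2 0 passed, beside 3.13%, and NCED3 (−0.80 ± 0.33, adjusted p = 0.28) and ABA1 (−0.24 ± 0.10, adjusted p = 0.299) had an unadjusted p under 0.05, beside 14.5%. DESeq2 also called 0 of the genes in each of the 3. The standard errors in them ran from 0.097 for ABA2 to 0.60 for CYP707A2 on the log2 scale, so that low genes were measured less closely: in Aza1 eM2 against DMSO the value for CYP707A2 was 0.83 ± 0.60 (adjusted p = 0.502) and that for ABA2 0.21 ± 0.10 (adjusted p = 0.334).

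The rest of the ABA pathway was described with 56 further genes in 7 lists, of which 54 were tested. In jas-3 against WT 2 rose and 22 fell, with a median log2 fold change of −0.58, and in DMSO against WT 3 rose and 29 fell, with a median of −0.73. In Aza1 eM2 against WT 5 rose and 17 fell, with a median of −0.65. The direction depended on the scaling: with the total gene count, 14 rose and 9 fell in jas-3 against WT (median 0.22), 12 rose and 13 fell in DMSO (median −0.01), and 10 rose and 4 fell in Aza1 eM2 (median −0.19). With the seed storage covariate 1 rose and 1 fell, 5 rose and 3 fell, and 8 rose and 5 fell. Without the second WT library 2 rose and 9 fell in jas-3, 4 rose and 12 fell in DMSO, and 3 rose and 4 fell in Aza1 eM2, and without the first jas-3 library 2 rose and 8 fell in jas-3 against WT. As a share of the 54 genes, 40.7%, 53.7% and 31.5% fell in jas-3, DMSO and Aza1 eM2 against WT, beside 16.5%, 22.6% and 15.8% of all genes, and 3.70%, 5.56% and 9.26% rose, beside 23.7%, 27.1% and 22.4%. These shares are under TMM, and the split turned with the scaling as given above.

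The PP2C phosphatases, which hold ABA signaling off until a receptor binds the hormone, had 7 of 9 members lower in jas-3 than in WT, 8 of 9 lower in DMSO and 5 of 9 lower in Aza1 eM2, which is 77.8%, 88.9% and 55.6% of the list beside 16.5%, 22.6% and 15.8% of all genes that were lower, and none passed as higher. AHG3, the list's smallest adjusted p in jas-3 against WT, had 52.0 and 54.7 scaled CPM in jas-3 and 96.4 and 98.9 in WT (log2 fold change −0.87 ± 0.11, adjusted p = 0.00012). Before scaling, AHG3 had 2810 and 2573 counts in jas-3 and 2966 and 2543 in WT. With the total gene count 2 of these phosphatases fell and 1 rose in each of the 3 comparisons. Of the 12 receptors tested, 1 rose, beside 23.7% of all genes, and 5 fell in jas-3 against WT (41.7%), beside 16.5%. PYL9 was at 9.47 and 9.98 in jas-3, against 17.3 and 21.1 in WT (−0.98 ± 0.16, adjusted p = 0.00074). Its counts before scaling were 512 and 469 in jas-3 and 532 and 544 in WT. PYL12 and PYL13, also among the 5, had 0 counts in jas-3. In WT they had 15 and 108 and 10 and 110 counts. PYL8 rose by 0.56 ± 0.15 (adjusted p = 0.00996). Of the 3 SnRK2 kinases that carry the signal on, SNRK2.2 rose, with 67.7 and 67.0 in jas-3, against 48.4 and 39.7 in WT (0.61 ± 0.12, adjusted p = 0.0022).

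The transcription factors ABI3, ABI4 and ABI5, which act in ABA-dependent seed maturation, all fell in jas-3 and in DMSO against WT, beside 16.5% and 22.6% of all genes, and ABI5 alone fell in Aza1 eM2, beside 15.8%. ABI5 had 2.85 and 3.87 scaled CPM in jas-3, against 9.40 and 22.9 in WT (−2.26 ± 0.33, adjusted p = 0.00029). These calls ended with the seed storage covariate. Among transporters 0 rose and 3 of 6 fell in jas-3 (50%), beside 16.5% of all genes, and DTX50, an efflux carrier, had 0.407 and 1.91 in jas-3, against 19.2 and 55.6 in WT (−5.02 ± 0.93, adjusted p = 0.0015). Of 7 ABA-responsive genes, 0 rose and 2 fell in jas-3 (28.6%), beside 16.5% of all genes, and RAB18, a dehydrin, had 6.07 and 7.87 in jas-3, against 14.8 and 191 in WT (−3.89 ± 1.09, adjusted p = 0.0146). The 2 WT libraries thus differed from each other for RAB18 as they did for CYP707A2. Of 14 other genes of synthesis, breakdown and conjugation, 0 rose and 2 fell in jas-3, AAO4 and AAO1 (14.3%, beside 16.5% of all genes), and AAO1 had 4.74 and 10.2 in jas-3, against 13.1 and 28.2 in WT (−1.47 ± 0.50, adjusted p = 0.0345).

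**Figure D4:**
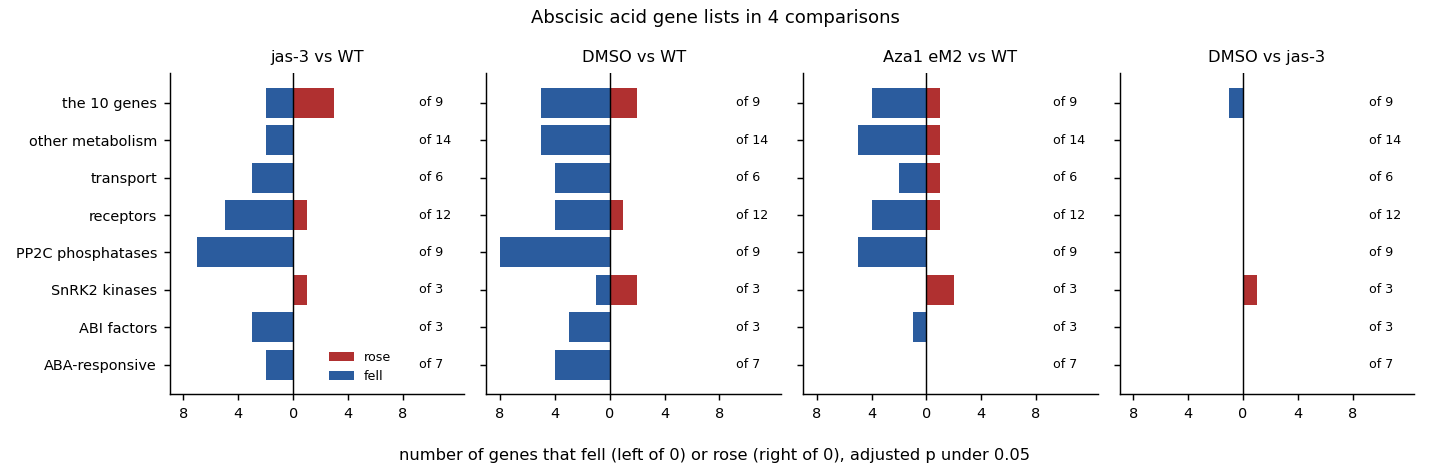
Number of genes (x axis) that fell (blue, left of 0) or rose (red, right of 0) at an adjusted p under 0.05 in the 10 genes and in 7 further lists of ABA genes, in 4 comparisons; the number beside each bar is how many of the list were tested. Most bars against WT lie to the left, with 22 fallen and 2 risen among the 54 further genes tested in jas-3 against WT, a split that turns to 9 and 14 with the total gene count; in DMSO against jas-3 the bars hold ABA1 and SNRK2.3 alone.

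Outside the comparisons with WT few listed genes passed. In DMSO against jas-3 1 of the 54 genes rose and 0 fell (1.85%, beside 1.6% of all genes). The gene was SNRK2.3, with 21.7, 22.2 and 21.1 scaled CPM in DMSO, against 13.4 and 13.96 in jas-3 (0.66 ± 0.12, adjusted p = 0.0162). That call ended with the total gene count, without either jas-3 library and without the first or the second DMSO library. DESeq2 called 5 of the 56 listed genes there, beside 720 of all 27394 genes. In Aza1 eM2 against DMSO 0 of 54 passed in edgeR, beside 4.17% of all genes, and 1 of 56 in DESeq2, beside 1571 of 27394. Of the 54, 9 (16.7%) had an unadjusted p under 0.05, beside 17.3% of all genes. This count was 1 (1.85%) with the seed storage covariate, beside 10.4% of all genes. The 7 ABA-responsive genes had a median log2 fold change of 1.37 there, and EM1, with 38.5, 1.86 and 15.5 in Aza1 eM2, against 0.671, 2.25 and 0.848 in DMSO, had one of 3.90 ± 1.53. The 8 seed storage genes had a median of 0.87 in the same comparison, and their part in these values was not tested further. The smallest adjusted p of each list there was 0.121 for PYL7, 0.128 for ABI3, 0.185 for UGT71C5, 0.214 for EM1, 0.218 for NPF4.6, 0.324 for AHG1 and 0.399 for SNRK2.6. In Aza1 eM3 against Aza1 eM2 0 of 54 passed in edgeR, beside 3.13% of all genes, and 1 of 56 in DESeq2, beside 1289 of 27394. Of the 54, 5 (9.26%) had an unadjusted p under 0.05, beside 14.5% of all genes. The smallest adjusted p of each list was 0.0848 for AHG3, 0.178 for ABI5, 0.276 for PYL8, 0.506 for UGT71C5, 0.561 for ABCG40, 0.703 for SNRK2.6 and 0.814 for RD29A. In Aza1 eM3 against DMSO 0 passed with either tool, beside 0% of all genes in edgeR and 72 of 27394 in DESeq2. The number of the 54 with an unadjusted p under 0.05 was 12 (22.2%), beside 7.27% of all genes. It was 7 with the seed storage covariate (13.0%, beside 6.27%), and in Aza1 eM3 against Aza1 eM2 it was 9 (16.7%, beside 15.5%).

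The gene whose log2 level was most like that of each tested gene over the 14 libraries was found by Pearson's r, given as a description, since the libraries share their groups and scaling. For NCED3 it was ELIP1, an early light-induced protein of plastids (r = 0.98), which had 2.99 to 10.3 scaled CPM in Aza1 eM3, 8.95 to 29.1 in Aza1 eM2, 7.51 to 14.8 in DMSO, and 14.8 and 15.2 in jas-3, against 204 and 342 in WT. For ABA1 it was AT3G56290 (r = 0.99), at 3.86 to 5.12 in Aza1 eM3, 3.63 to 6.81 in Aza1 eM2, 4.598 to 6.34 in DMSO, and 21.0 and 26.3 in jas-3, against 31.5 and 45.8 in WT. CYP707A2 was most like LEA4-5, a late embryogenesis abundant protein (r = 0.94), which also differed between the WT libraries, at 14.9 and 87.2. The others were AT5G39180 for NCED6 (r = 0.94), GH9B5 for NCED9 (r = 0.94), MCCB for ABA2 (r = 0.91), AT1G20880 for AAO3 (r = 0.96), AT1G24030 for CYP707A1 (r = 0.92) and CYCH;1 for CYP707A3 (r = 0.94). Over the 12 libraries of the jas-3 background the same gene stayed first for NCED9 and AAO3, and another came first for the other 7. Between the 9 tested genes themselves, NCED6 and NCED9 had the highest r (0.79), and ABA1 and ABA2 the lowest (−0.81).

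Of the annotated genes next to each of the 10 without overlap, 2 passed a log2 fold change of at least 2 with an adjusted p under 0.01 in some comparison, and so did AT1G52330, which overlaps ABA2. AT4G19240, 3839 bases from CYP707A1, had 0 counts in all 4 Aza1 eM3 libraries, 6, 294 and 0 in Aza1 eM2, 0 in all DMSO and jas-3 libraries, and 3203 and 2660 in WT. CID9, 16189 bases from NCED3, had 3.66 and 6.11 scaled CPM in jas-3, against 17.1 and 22.3 in WT (log2 fold change −2.01 ± 0.52, adjusted p = 0.0099). AT1G52330 had 0.479, 0.427 and 0.191 scaled CPM in DMSO, against 1.82 and 3.58 in WT (−2.87 ± 0.58, adjusted p = 0.0018).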

How the data were processed

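The authors extracted total RNA, aligned the reads to TAIR10 with STAR (version not given in the sources used here) and deposited counts of reads on genes, transposable elements and intergenic regions, without normalization. Only the counts on 27394 genes were used. Of gene counts between 1 and 20, 73.7% to 79.0% were even in each library, so both mates of most pairs seem to be counted, and counts divided by 2 were an alternative. Counting error takes each read as a separate molecule.

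The members and lists were chosen with earlier results of these data known. The test was that of edgeR 4.0.16 in R 4.3.3 (filterByExpr by group, TMM, glmQLFit and glmQLFTest, 14 libraries in 1 fit), with Benjamini-Hochberg adjustment over 22359 genes. A gene rose or fell where its adjusted p was under 0.05, at any fold. Standard errors were derived from that test, as the absolute log2 fold change over the square root of its F statistic. The genes named are the 10 members, the gene most like each, neighbours past the thresholds in the methods of the study (a log2 fold change of at least 2 and an adjusted p under 0.01), and from each ABA list that of smallest adjusted p in jas-3 against WT, Aza1 eM2 against DMSO and Aza1 eM3 against Aza1 eM2. Other genes named (the clock genes, PYL8, SNRK2.3, AAO4, AT1G52330) were chosen after their values were seen or are counted in full. Log2 levels used a prior count of 2. As alternatives, DESeq2 1.42.0 (Wald test) was run, and edgeR was run with the size factors of DESeq2, no filter, at least 10 counts in every library, the thresholds of the study, only the 2 groups compared, the replicate number as a block, the share of 8 seed storage genes as a covariate, and each library left out. After the data had been seen, total gene counts without TMM, with and without the storage genes, and a plain fold change of at least 2 with an adjusted p under 0.01 were added. Fits were also run on simulated data with the same spread for every gene and few changed genes. That setting did not copy the wide differences from WT, so it is no check of those results. Sequences and exon lengths come from RefSeq (TAIR10.1), whose 5 chromosome lengths equal those in the deposited tables. Tables were read with Python 3.11.15, numpy 2.4.6 and pandas 2.3.3, and drawn with matplotlib 3.10.9.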

Additional observations from a re-analysis of the deposited data

How the results depend on the processing

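The number of the 9 genes past the threshold depended on the processing in the comparisons with WT. With a log2 fold change of at least 2 and an adjusted p under 0.01 it was 2 instead of 5 in jas-3 against WT, 2 instead of 7 in DMSO against WT, 1 instead of 5 in Aza1 eM2 against WT and 0 instead of 1 in DMSO against jas-3. With a plain fold change of at least 2 at the same adjusted p, chosen after seeing the data, it was 2, 3, 3 and 1. With the seed storage share as a covariate it was 0, 1, 3 and 1. With the total gene count in place of TMM it was 8 in jas-3 against WT. Leaving out single libraries gave 2 to 5 in jas-3 against WT (2 without the first jas-3, the first WT or the second WT library), 2 to 7 in DMSO against WT and 2 to 5 in Aza1 eM2 against WT (2 without the second WT library in both), and 1 in DMSO against jas-3 throughout. Among results that passed under either setting, the sign turned for NCED9 in jas-3 against WT (−0.53, covariate), ABA1 and AAO3 in jas-3 against WT (0.51 and 0.41, total gene count, where both passed), NCED6 in DMSO against WT (−0.015, covariate), AAO3 in DMSO against WT (0.17 with the total gene count, 0.032 with the covariate) and CYP707A1 in DMSO against WT (0.089, total gene count). Values that passed under neither setting also turned, such as CYP707A1 in jas-3 against WT (0.53, total gene count). The cause was not tested. With DESeq2, which also tested NCED5, 6, 8 and 5 of the 10 genes passed against WT, and with totals that leave out the storage genes 5, 6 and 5. In the 3 comparisons of Aza1 with DMSO and of its generations, 0 passed under every alternative. With the replicate number as a block, 4, 6 and 5 genes passed against WT and 1 in DMSO against jas-3, NCED9 lost its call in jas-3 against WT (adjusted p = 0.0652) and NCED6 its call in DMSO against WT (adjusted p = 0.0806), and no other call changed; same-numbered libraries did not deviate together in the comparisons with 3 pairs, where correlations ran from −0.26 to 0.294, so the numbers were taken as names only, while the 2 pairs of DMSO and jas-3 correlated at 0.532 and 0.204. With gene span in place of exon length or the total gene count in place of TMM, 25 and 20 of 50 levels per kilobase moved by more than 1 SD between libraries. Depth limits NCED5, CYP707A3, NCED3 and CYP707A2, whose counts run from 0 to 314 per library.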
